A study of Mus musculus with 8 samples.

Results

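Hlf, its relatives Tef and Dbp, the D-box repressor Nfil3, and the clock repressors Per1, Per2, Per3, Nr1d1 and Nr1d2 are described here in hematopoietic stem cells (HSCs) with and without MITOL, a ubiquitin ligase of the mitochondrial outer membrane encoded by Marchf5. These are 9 of the 22065 genes named in the count table. Hlf was picked because its count fell after the deletion in these same libraries, so its difference is given as a description with no test. The other 8 were picked by family and by their place in the circadian clock.

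The libraries are RNA-seq libraries of 100 cells each, sorted from C57BL/6 mouse bone marrow as CD150+ CD48- EPCR+ Lineage- cells, from mice 8 to 10 weeks old. In 4 libraries, called MitolΔ/Δ, the mice carried floxed Mitol alleles and MX1-cre. The 4 control libraries came from Mitol Flox/Flox littermates that lack MX1-cre. All mice of both groups had received Poly:IC, which switches on the interferon-driven MX1 promoter, and the cells were taken 1 week later. MX1-cre acts in interferon-responsive cells and is not restricted to HSCs, and Poly:IC itself was given to the control mice too. The sources used here do not say whether each library is a separate mouse, so p-values measure the spread between libraries. They also do not give the time of day at which the marrow was taken, which matters for genes whose level follows the clock, and its part in the results was not tested.

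In the clock, CLOCK and BMAL1 bind E-boxes and switch on genes for their own repressors, among them the PER proteins, which act with the CRY proteins, and the nuclear receptors REV-ERBα and REV-ERBβ, encoded by Nr1d1 and Nr1d2, which repress Bmal1 at ROR elements. HLF, TEF and DBP are bZIP proteins with a proline and acidic amino acid-rich (PAR) domain. They activate genes through D-boxes and are an output of the clock, and NFIL3 competes for the same D-boxes as a repressor. In blood formation HLF is known as a factor that marks and maintains HSCs, and the HLF gene is the partner of TCF3 in a leukemia fusion.

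Counts on named genes summed to between 7214935 and 12398138 per library, and the 9 genes took 0.192% to 0.235% of them in control HSCs and 0.126% to 0.166% in MitolΔ/Δ HSCs. The markers of the sort were present in both groups. Procr, which encodes EPCR, was between 386 and 720.3 normalized counts in every library, and Slamf1, which encodes CD150, was at 412 to 669 in MitolΔ/Δ and 301 to 411 in control HSCs, higher in 4 of 4 MitolΔ/Δ libraries than in any control library (log2 fold change 0.56, edgeR adjusted p = 0.0501). Kit encodes c-Kit, which the authors also require of long-term HSCs. It was at 6067 to 8367 in MitolΔ/Δ and 10245 to 13528 in control HSCs, without overlap (log2 fold change -0.75, edgeR adjusted p = 0.00705). Of 16 HSC markers tested, 2 fell, namely Kit and Hoxa9, and 0 rose past the threshold. The share called over all tested genes was 8.43%, 3.75% as lower and 4.68% as higher. The sum of the 16 was 32701 to 37173 in MitolΔ/Δ and 39162 to 42415 in control HSCs. Kit alone gave 7050 of the mean sum of 34233 in MitolΔ/Δ and 11752 of 40918 in control HSCs. Among 12 erythroid genes, 7 of them tested, Gata1 and Hbb-bt rose, and the sum of the list was 1205 to 5443 in MitolΔ/Δ HSCs, with the highest value in replicate 3, and 484 to 991 in control HSCs. Car1, a red-cell gene of that list, was at 0 in control replicates 1 and 2 and in MitolΔ/Δ replicate 1, at 523 normalized counts in MitolΔ/Δ replicate 4, at 52.9 in control replicate 3 and at most at 6.41 in the others. All 13 proliferation genes rose, with sums of 7261 to 15384 against 3399 to 6852. The table held 8 of 10 markers of neutrophils, with sums of 484 to 1024 in MitolΔ/Δ and 406 to 617 in control HSCs, in which Prtn3 took the largest part, and 4 of 8 for B cells, 3 of 7 for T cells and 1 of 8 for mast cells. Of these lists 2, 1, 2 and 1 genes were tested and 0 were called by edgeR, with 1 at an unadjusted p under 0.05, a neutrophil gene. Such an unadjusted p was found for 26.4% of all tested genes. Prtn3, Ltf and Ngp had the higher mean in MitolΔ/Δ HSCs, and Elane, Mpo, S100a8, S100a9 and Camp the lower. Prtn3 averaged 714 in MitolΔ/Δ and 420 in control HSCs, and S100a8 0.39 and 25.9. S100a9 was at 0 in every MitolΔ/Δ library and at 2.64 to 21.3 in control HSCs. S100a8 and S100a9 did not pass the expression filter. The count of Marchf5 was 274 ± 32.1 in MitolΔ/Δ and 303 ± 29.4 in control HSCs (SD, n = 4 each; log2 fold change -0.15, edgeR adjusted p = 0.498), so the gene total does not mark the deleted libraries.

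Hlf was lower in MitolΔ/Δ HSCs. Its normalized counts (counts divided by a size factor of each library) were 5794, 5954, 4613 and 5915 in MitolΔ/Δ replicates 1 to 4 and 8822, 9979, 8479 and 10889 in control replicates 1 to 4. Every MitolΔ/Δ library lay below every control library, and MitolΔ/Δ replicate 3 lay apart from the other MitolΔ/Δ libraries. The means were 5569 ± 641 and 9542 ± 1104 (SD, n = 4 each), which is 58.4% of control and a log2 fold change of -0.79 with a standard error of 0.11. Replicate 3 was also the MitolΔ/Δ library with the highest red-cell sum, 5443, and control replicate 4 the control library with the fewest immediate early transcripts (given with Per1). With both left out the log2 fold change of Hlf was -0.63. They were also the lowest MitolΔ/Δ and the highest control library for Hlf, so leaving them out had to narrow the difference. The part of red-cell or immediate early transcripts in the level of Hlf was not tested. In bulk RNA, fewer cells that express a gene and less of its RNA per cell cannot be told apart. Hlf lies on chromosome 11 of GRCm39 from 90227221 to 90281761 on the minus strand, with 4 exons in its canonical transcript.

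**Figure D1:**
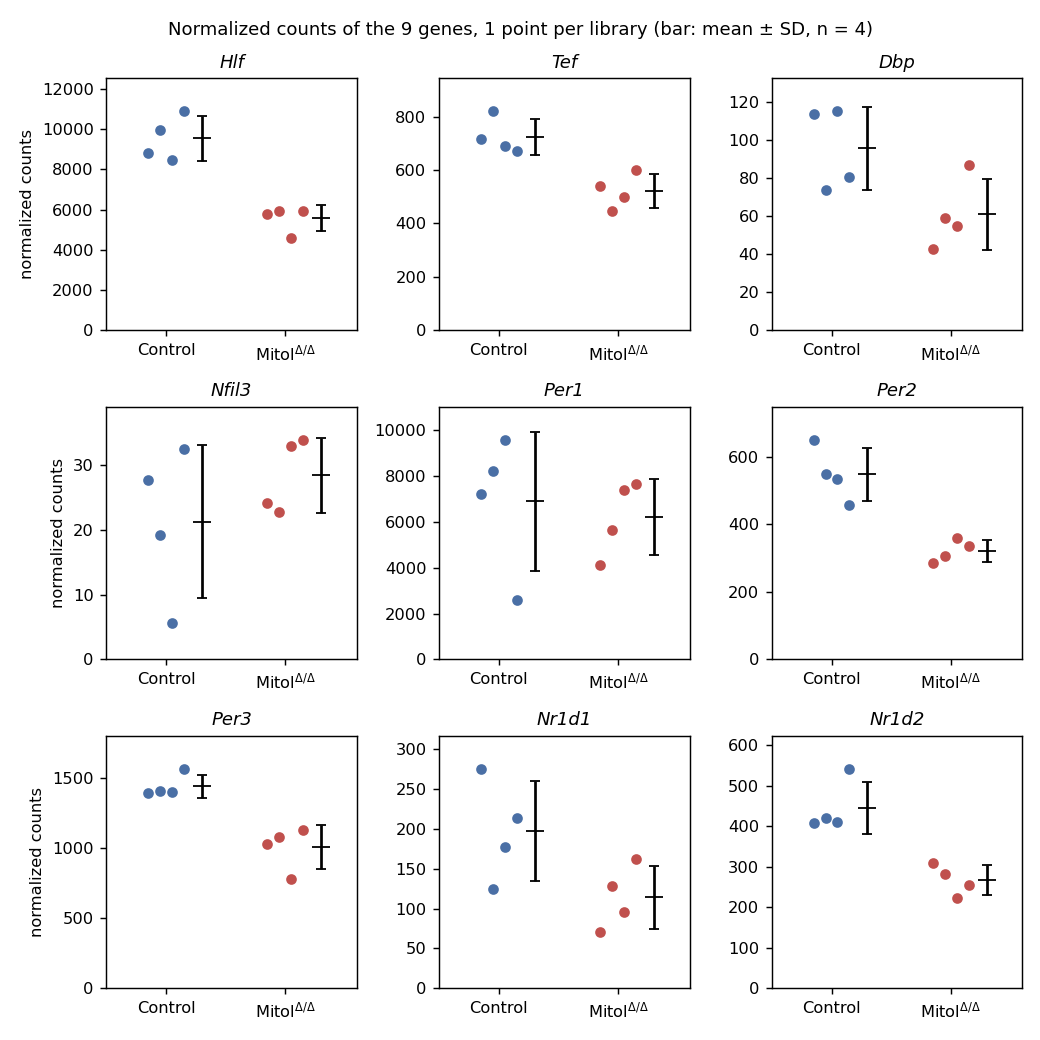
Normalized counts of the 9 genes in each library, with control (blue) and MitolΔ/Δ (red) libraries as points and the mean ± SD (n = 4) as bars. The MitolΔ/Δ points of Hlf, Tef, Per2, Per3 and Nr1d2 lie below all control points, and those of Dbp, Nr1d1, Nfil3 and Per1 overlap with them.

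Of the 8 genes besides Hlf, 4 fell past an adjusted p of 0.05, namely Tef, Per2, Per3 and Nr1d2, and 0 rose. Across all 16444 genes tested 8.43% were called, 3.75% as lower and 4.68% as higher, and 44.4% of the called genes were lower (58.7% with upper-quartile normalization). The median log2 fold change of the 8 was -0.60, against -0.020 over all tested genes. Those 4 genes were also the ones with groups that did not overlap, which was so for 15.3% of tested genes, 7.37% with MitolΔ/Δ HSCs lower and 7.91% with them higher. The count of 4 became 2 without control replicate 2, 6 without MitolΔ/Δ replicate 4, and 1 without both MitolΔ/Δ replicate 3 and control replicate 4. Over all genes the same fits called 359 of 16778, 2501 of 16907 and 62 of 16367, so the calls moved over the whole data. The 8 were chosen with results of these data known, so the counts of the 8 describe them and test nothing further.

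Tef encodes a PAR bZIP activator expressed in many tissues. Tef spans 81686622 to 81711064 of chromosome 15 (GRCm39, as are all gene positions here). It had 539, 448, 498 and 599 normalized counts in MitolΔ/Δ HSCs and 715, 819.7, 688 and 671 in control HSCs, and every MitolΔ/Δ library was below every control library. Means of 521 ± 64.1 and 724 ± 66.6 (SD, n = 4 each) gave a log2 fold change of -0.48 (standard error 0.11, edgeR adjusted p = 0.0266). The call was lost when MitolΔ/Δ replicate 1, 2 or 3 or control replicate 2 was left out, with adjusted p-values from 0.0577 to 0.0843, while the log2 fold change in these fits was -0.50 to -0.41.

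Dbp (chromosome 7, 45354512 to 45359627), a PAR bZIP gene with a strong daily rhythm in many tissues, was low in these cells. It had 43.0, 59.1, 55.0 and 86.8 normalized counts in MitolΔ/Δ HSCs and 114, 73.6, 115 and 80.5 in control HSCs. The groups overlapped, since MitolΔ/Δ replicate 4 was above control replicates 2 and 4. Its mean was 63.7% of control, a log2 fold change of -0.67 (standard error 0.26, edgeR adjusted p = 0.127), and it passed the threshold only without MitolΔ/Δ replicate 4 (adjusted p = 0.0412). Of its canonical transcript, 539 bases or 29.3% overlap exons of Sphk2 on the opposite strand, and the strand setting of the counting is not given in the sources used here. Sphk2 had a log2 fold change of -0.14 (edgeR adjusted p = 0.405).

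Nfil3 (chromosome 13, 53121245 to 53137010), the repressor of the D-box, was near the lower limit of the data, with raw counts of 6 to 36 per library. Its normalized counts were 24.2, 22.8, 33.0 and 33.9 in MitolΔ/Δ HSCs and 27.8, 19.2, 5.67 and 32.6 in control HSCs. The groups overlapped, with control replicate 3 lowest. The log2 fold change was 0.41 with a standard error of 0.45 (edgeR adjusted p = 0.604), and it ran from 0.089 without control replicate 3 to 0.71 without control replicate 4.

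Per2 (chromosome 1, 91343700 to 91387069), whose protein represses CLOCK and BMAL1, fell. It had 284, 305, 359 and 336 normalized counts in MitolΔ/Δ HSCs and 649, 549.7, 533 and 458 in control HSCs, with no overlap between the groups. Means of 321 ± 33.1 and 547 ± 78.6 (SD, n = 4 each), or 58.6% of control, gave a log2 fold change of -0.78 (standard error 0.13, edgeR adjusted p = 0.00836). The call held in all 8 fits with 1 library left out. Per2 was the 1 gene of the 8 still called with both MitolΔ/Δ replicate 3 and control replicate 4 left out (edgeR adjusted p = 0.0385). They were the highest MitolΔ/Δ and the lowest control library for Per2, so leaving them out had to widen its difference (log2 fold change -0.91).

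Per3 (chromosome 4, 151081373 to 151129140), the family member least needed for the clock itself, fell as well. It had 1033, 1082, 783 and 1132 normalized counts in MitolΔ/Δ HSCs and 1397, 1406, 1403 and 1565 in control HSCs. Replicate 3 was the lowest MitolΔ/Δ library, as for Hlf, and all control libraries were above all MitolΔ/Δ libraries. The log2 fold change was -0.53 (standard error 0.11, edgeR adjusted p = 0.0183). Without control replicate 2 or control replicate 4 the adjusted p was 0.0532 and 0.0518, with log2 fold changes of -0.54 and -0.49.

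Per1 (chromosome 11, 68986035 to 69002300) showed no such separation. Its normalized counts were 4119, 5659, 7390.4 and 7642 in MitolΔ/Δ HSCs and 7236, 8218, 9563 and 2572 in control HSCs. Control replicate 4 was the lowest of all 8 libraries. The means were 6203 ± 1645 and 6897 ± 3037 (SD, n = 4 each), a log2 fold change of -0.16 with a standard error of 0.31 (edgeR adjusted p = 0.785), and with 1 library left out it ran from -0.44 without control replicate 4 to 0.038 without control replicate 3.

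Nr1d2 (chromosome 14, 4230545 to 4266624), which encodes REV-ERBβ, fell. Its normalized counts were 310.0, 282, 224 and 254 in MitolΔ/Δ HSCs and 407, 421, 411 and 541 in control HSCs. All MitolΔ/Δ libraries were below all control libraries, and control replicate 4 stood above the other control libraries. With means of 267 ± 37.1 and 445 ± 64.3 (SD, n = 4 each), 60.1% of control, the log2 fold change was -0.75 (standard error 0.14, edgeR adjusted p = 0.0125), and the call held in all 8 fits with 1 library left out.

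Nr1d1 (chromosome 11, 98658752 to 98666188), which encodes REV-ERBα, had 70.3, 129, 95.3 and 162 normalized counts in MitolΔ/Δ HSCs and 275, 125, 177 and 213 in control HSCs. MitolΔ/Δ replicates 2 and 4 lay above control replicate 2. The log2 fold change was -0.81 (standard error 0.28, edgeR adjusted p = 0.0925), and it passed the threshold with DESeq2 (adjusted p = 0.0428), which called 14.7% of the genes it tested, and without MitolΔ/Δ replicate 4 (adjusted p = 0.0303). Of its canonical transcript, 1338 bases or 49.2% overlap exons of Thra on the opposite strand, so reads of both genes may not be told apart. Thra, a thyroid hormone receptor gene, itself fell, with 351 ± 72.3 and 555 ± 83.3 normalized counts (SD, n = 4 each; log2 fold change -0.68, edgeR adjusted p = 0.0242). Shorter stretches of Nfil3 (386 bases, 16.9%), Per1 (334 bases, 4.99%) and Per3 (294 bases, 4.89%) are shared with predicted genes on the opposite strand, and counts there are uncertain in the same way.

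RefSeq promoter windows, on the build GRCm38.p6 and not that of the counts, hold 8 of the 9 genes. They are 10 windows of 250 bases before a start and 50 after it. Per2 has no window, so its promoter was not searched. Both strands were searched for the letters of the E-box (CACGTG), the D-box (TTATGTAA or TTACGTAA), the ROR element (TAGGTCA or TGGGTCA) and the cAMP response element (CRE, TGACGTCA). These were found in 7.15%, 1.06%, 6.45% and 1.79% of 32851 windows. The sequences are the 250 bases before the start, 5′ to 3′, of the windows of Per3, Hlf, Tef and Per1 in which the letters of a clock or CRE motif were found, with the match in capitals. A match is a description of letters and not of a bound site.
Per3: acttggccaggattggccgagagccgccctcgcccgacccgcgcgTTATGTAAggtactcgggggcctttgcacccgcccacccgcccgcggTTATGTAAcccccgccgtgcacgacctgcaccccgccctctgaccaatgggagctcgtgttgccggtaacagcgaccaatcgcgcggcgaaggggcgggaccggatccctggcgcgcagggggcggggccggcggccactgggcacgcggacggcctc
Hlf: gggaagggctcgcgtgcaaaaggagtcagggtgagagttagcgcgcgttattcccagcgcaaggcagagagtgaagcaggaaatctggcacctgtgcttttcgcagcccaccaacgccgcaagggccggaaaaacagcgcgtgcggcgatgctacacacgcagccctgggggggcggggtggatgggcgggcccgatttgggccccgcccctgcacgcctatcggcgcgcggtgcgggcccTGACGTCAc
Tef, second start: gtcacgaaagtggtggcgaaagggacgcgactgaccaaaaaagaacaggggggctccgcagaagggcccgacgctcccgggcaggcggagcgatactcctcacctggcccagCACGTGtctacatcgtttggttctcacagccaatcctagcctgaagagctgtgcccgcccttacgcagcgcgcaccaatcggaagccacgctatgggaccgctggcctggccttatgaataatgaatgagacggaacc
Per1, first start: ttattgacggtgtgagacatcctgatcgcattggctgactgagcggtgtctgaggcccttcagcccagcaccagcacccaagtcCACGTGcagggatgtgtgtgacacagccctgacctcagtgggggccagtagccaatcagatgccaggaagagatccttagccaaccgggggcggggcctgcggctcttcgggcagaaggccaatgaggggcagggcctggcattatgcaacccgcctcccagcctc

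The Per3 sequence (chr4:151044666-151044915, minus strand) holds the D-box letters at 2 places, which begin at -205 and -158 relative to the start. The Hlf sequence (chr11:90390918-90391167, minus strand) holds the CRE letters, which begin at -9. The second Tef start (chr15:81811164-81811413, plus strand) has an E-box at -138, and the first Tef start, not shown, has one at -127. The first Per1 start (chr11:69098699-69098948, plus strand) has an E-box at -166. Nfil3 held the letters of a ROR element. The windows of Dbp, Nr1d1 and Nr1d2 and that of the second Per1 start held none of the 4 motifs.

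Per length of transcript, Hlf was the highest of the 9 genes in control HSCs, at 175 ± 20.3 CPM per kb (CPM scaled by the length of the canonical transcript, SD, n = 4). Per1 came next with 110 ± 48.3, and its range of 41.0 to 152 lay below that of Hlf, 155 to 200. Per3 and Tef followed at 25.5 ± 1.49 and 18.2 ± 1.64, and then Per2 at 9.99 ± 1.42, Nr1d2 at 8.36 ± 1.22, Nr1d1 at 7.73 ± 2.47 and Dbp at 5.55 ± 1.26. In that run Per2 overlapped Nr1d2, Nr1d2 overlapped Nr1d1 and Nr1d1 overlapped Dbp over the 4 control libraries. Nfil3 was lowest at 0.993 ± 0.551. The order of the means was the same in MitolΔ/Δ HSCs, in which Hlf was at 101 ± 11.1 (84.4 to 107) and Per1 at 98.0 ± 26.4 (64.7 to 121), so that these ranges overlapped. With all annotated exon bases as the length, Nr1d1 and Nr1d2 changed places.

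**Figure D2:**
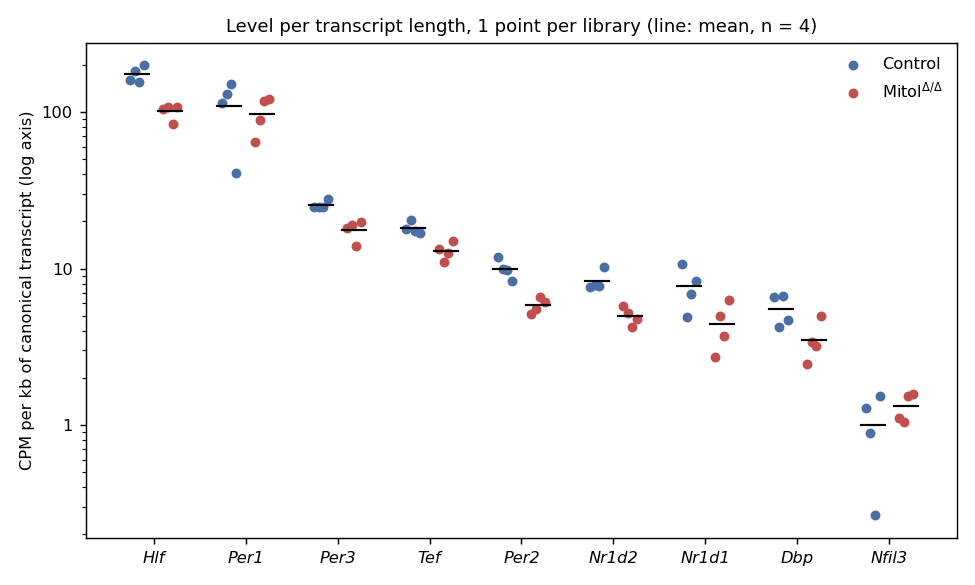
Level of each of the 9 genes in CPM per kb of canonical transcript, on a log axis, in each control and MitolΔ/Δ library. Hlf is highest, at 155 to 200 in control HSCs, and Nfil3 lowest.

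Of 20 other clock genes, 19 were tested and 3 were called, 2 lower and 1 higher, with a median log2 fold change of -0.090. Across all genes tested 8.43% were called. The count of 3 became 5 with DESeq2 and without MitolΔ/Δ replicate 4, 1 without MitolΔ/Δ replicate 1 or 2, and 0 without MitolΔ/Δ replicate 3, control replicate 2 or control replicate 4. Over all genes these fits called, in the same order, 2317, 2501, 565, 492, 520, 359 and 510. The groups did not overlap for 6 of the 20 genes, 3 of them with MitolΔ/Δ HSCs lower. Over all tested genes that share was 15.3%, 7.37% with MitolΔ/Δ HSCs lower. The core activators Bmal1, Clock, Npas2 and Bmal2 were not among the 3 clock genes called. Bmal1 (Arntl in the file) had a log2 fold change of -0.24 (edgeR adjusted p = 0.402), Clock -0.090 (0.669), Npas2, a relative of Clock, 0.27 (0.679) and Bmal2 -0.87 (0.341).

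Rora, an activator at ROR elements, fell. Its normalized counts were 333, 237, 286 and 381 in MitolΔ/Δ HSCs and 455, 489, 419 and 707 in control HSCs, without overlap. The log2 fold change was -0.76 (standard error 0.18, edgeR adjusted p = 0.0302), and the call held in 3 of 8 fits with 1 library left out, those without MitolΔ/Δ replicate 4, control replicate 1 or control replicate 3, with log2 fold changes of -0.85 to -0.56 over the 8. Its relative Rorb had 2.07 to 25.4 normalized counts over the 8 libraries and a log2 fold change of -0.19 (edgeR adjusted p = 0.895).

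Bhlhe40 (DEC1), a repressor at E-boxes, rose. It had 249, 297, 647 and 547 normalized counts in MitolΔ/Δ HSCs and 184, 189, 215 and 94.1 in control HSCs. The groups were apart, and the log2 fold change was 1.34 (standard error 0.32, edgeR adjusted p = 0.0270). The call was lost without MitolΔ/Δ replicate 3, control replicate 2 or control replicate 4, with log2 fold changes of 1.095, 1.40 and 1.14. With both MitolΔ/Δ replicate 3 and control replicate 4 left out the log2 fold change was 0.89 (edgeR adjusted p = 0.133). They were the highest MitolΔ/Δ and the lowest control library for Bhlhe40, so leaving them out had to narrow the difference. Among the repressors that were not called, Cry1 had 0.19 (adjusted p = 0.730), Cry2 -0.34 (0.0881), Ciart -0.64 (0.123) and Cipc 0.35 (0.0565). Bhlhe41 did not pass the expression filter.

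Of 8 genes for clock kinases, ubiquitin ligases and a deubiquitinase, Csnk1e, a kinase of the PER proteins, fell by a fitted log2 change of -0.35 (standard error 0.098, edgeR adjusted p = 0.0472). With 1 library left out it kept the call only without MitolΔ/Δ replicate 4, and it lost it with DESeq2 size factors and with no filter. The other 7 were not called, and over all tested genes 8.43% were called.

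**Figure D3:**
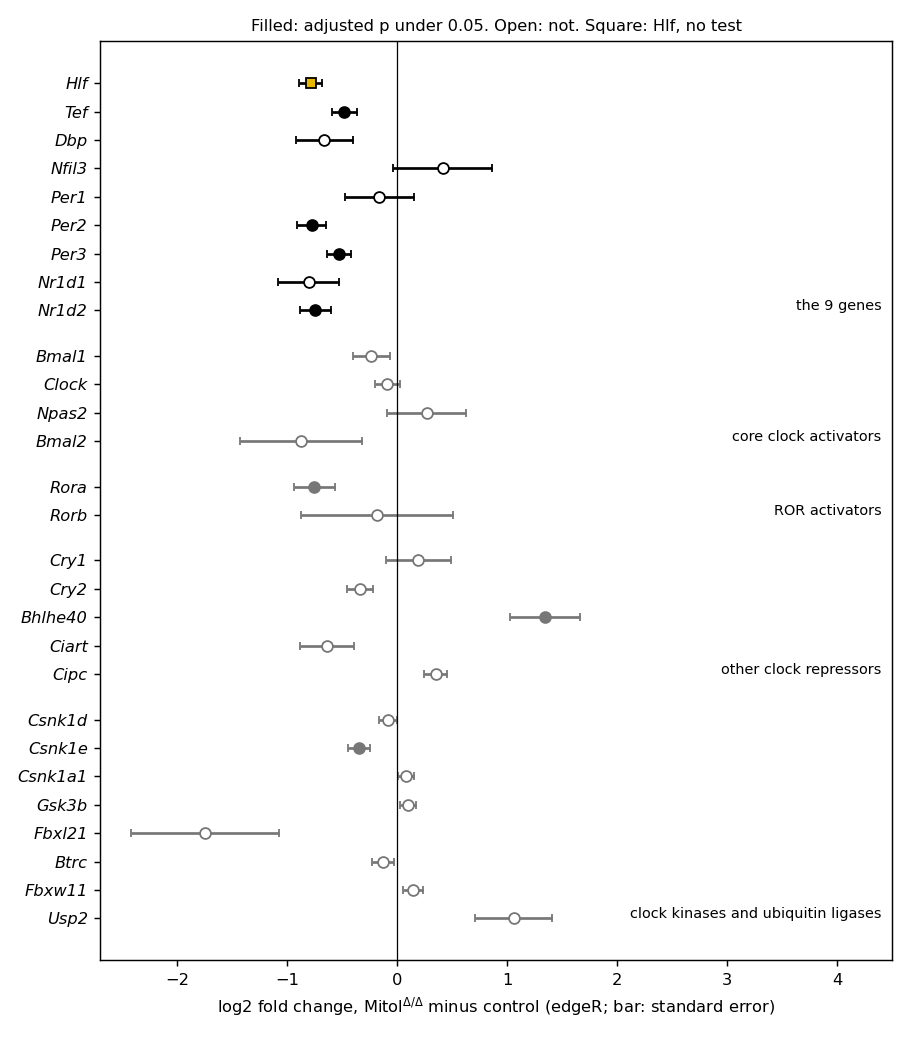
Log2 fold change of MitolΔ/Δ against control HSCs for the 9 genes and 19 other clock genes, with standard errors as bars and filled points for an adjusted p under 0.05. Hlf is drawn as a square with no test. Tef, Per2, Per3 and Nr1d2 lie between -0.78 and -0.48, Bhlhe40 at 1.34.

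Of 10 genes known as targets of the clock or of PAR bZIP factors, 7 were tested and Lmo2, a leukemia gene that HLF can activate, fell (log2 fold change -0.34, standard error 0.098, edgeR adjusted p = 0.0497). This call held only without MitolΔ/Δ replicate 4 when 1 library was left out, and was lost with DESeq2 size factors and with no filter. The share called over all tested genes was 8.43%. Of 8 glucocorticoid-responsive genes 0 were called by edgeR, and 2 had an unadjusted p under 0.05, as did 26.4% of all tested genes. Their summed level was 5036 to 9640 in MitolΔ/Δ and 5352 to 9820 in control HSCs.

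Per1 is also an immediate early gene, induced by cAMP and stress signals, and its level was set beside those of 19 such genes. Their sum was 26816, 30788, 37773 and 44562 normalized counts in MitolΔ/Δ replicates 1 to 4 and 48245, 42692, 49617 and 26483 in control replicates 1 to 4. Within MitolΔ/Δ HSCs, replicate 1 was lowest for both Per1 and the sum and replicate 4 highest, and control replicate 4 was the lowest control library for both. In control HSCs the immediate early sum put replicate 1 above replicate 2, unlike Per1. The summed glucocorticoid-responsive genes ran in the order of Per1 within both groups. They were at 5036, 5447, 7537 and 9640 in MitolΔ/Δ replicates 1 to 4. In control replicates 1 to 4 they were at 6090, 7588, 9820 and 5352. Of the 19 immediate early genes 2 fell, where 8.43% of all tested genes were called, 3.75% as lower. They were Fosb with a log2 fold change of -0.74 (edgeR adjusted p = 0.0476) and Klf6 with -0.55 (edgeR adjusted p = 0.0388). Each was called in 2 of 8 fits with 1 library left out. For both that was without MitolΔ/Δ replicate 4, for Fosb also without control replicate 1 and for Klf6 also without control replicate 4. Fosb also lost the call with DESeq2 size factors (adjusted p = 0.0505) and with no filter (adjusted p = 0.0524), and Klf6 with limma-voom (adjusted p = 0.0515). The part of the immediate early genes and of the glucocorticoid-responsive genes in the level of Per1 was not tested.

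The sum of the proliferation genes moved with the condition and did not overlap between the groups, at 7261 to 15384 in MitolΔ/Δ HSCs and 3399 to 6852 in control HSCs. Its part in the levels of the 9 genes was not tested.

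**Figure D4:**
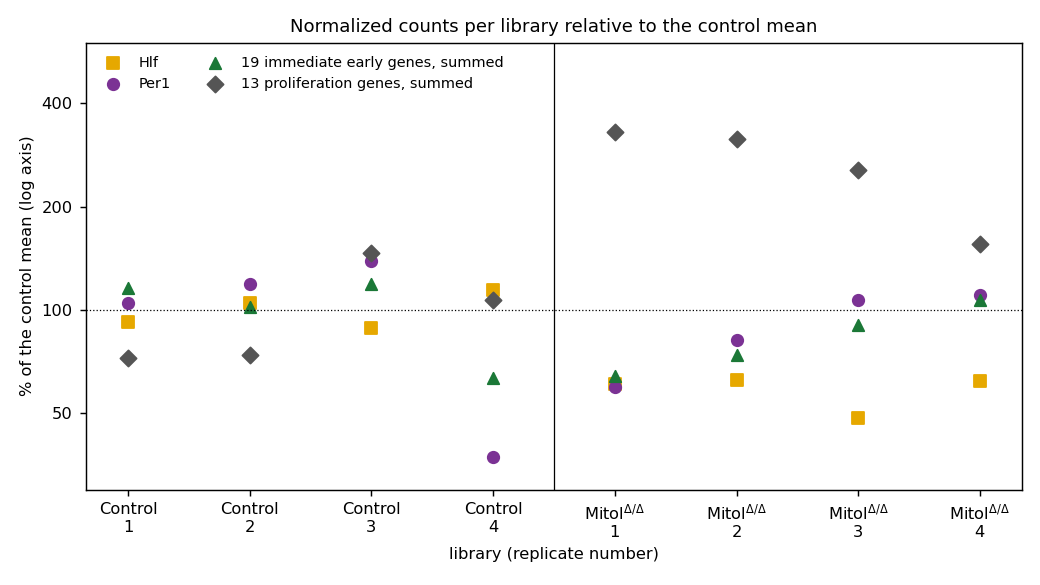
Per1, Hlf, the summed immediate early genes and the summed proliferation genes in each library, as a percent of the control mean. Per1 is lowest in control replicate 4, at 37.3%, where the immediate early genes are at 63.4%. Hlf is at 48.3% to 62.4% in MitolΔ/Δ HSCs.

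The genes most like Hlf over the 8 libraries, by the root mean square difference of log2 CPM centred on each gene's mean, were X1300002E11Rik (0.0887), Cuedc1 (0.0919), Slc16a9 (0.0962), Zfp608 (0.0973) and Fam214a (0.101), out of 12017 genes. The X that opens the first of these names is not part of the gene symbol. Of the other genes described here, Nr1d2 came at rank 7 (0.105) and Per3 at rank 26 (0.148), followed by Tef at rank 321, Per2 at 693, Dbp at 3137, Nr1d1 at 4841 and Per1 at 11235. Nfil3 had too few counts for this order. This is a description of the libraries in which Hlf was chosen.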

How the data were processed

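RNA-seq counts of 8 libraries, 4 MitolΔ/Δ and 4 control, were analysed. The authors aligned single-end reads to mm39 with STAR, merged files with SAMtools and counted with Subread. The deposited values are raw counts per gene. Which annotation and strand setting were used is not given in the sources used here. Of 23094 rows, 1029 carry no gene symbol (0.335% to 0.467% of counts) and were left out. Genes were tested with the quasi-likelihood test of edgeR 4.0.16 under R 4.3.3 (TMM, default expression filter, condition as the only term, Benjamini-Hochberg adjustment over 16444 genes, threshold 0.05). Normalized counts are counts divided by DESeq2 1.42.0 size factors. Positions are from GENCODE on GRCm39. The fit was tested on simulated counts. Alternatives covered normalization, filters, DESeq2, limma-voom (limma 3.58.1), a replicate block and each library left out. Named were the 9 genes, Marchf5, called genes of the lists, core activators and ROR genes, and the 5 genes most like Hlf among those with at least 50 mean normalized counts. Kit, Hoxa9, Procr, Slamf1, Car1, the neutrophil genes named, Thra, Sphk2 and the uncalled repressors were added after values were seen. A few list genes are not reported here and stay out of the lists' counts and sums. Members and lists were chosen with earlier results of these data known. No replicate pair agreed within sampling noise. The reads carry no molecular identifiers, so they are not independent molecules, and 100 cells a library limit precision.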

Additional observations from a re-analysis of the deposited data

Results flagged for a closer look

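In 4 of 40 groups of 4 libraries, 1 library lay apart from the others by more than Dixon's 95% value allows, which chance gives in about 1 of 20 groups. Hlf was at 4613 normalized counts in MitolΔ/Δ replicate 3 and at 5794 to 5954 in the other MitolΔ/Δ libraries. Control replicate 4 was apart for Per3 (1565 against 1397 to 1406) and for Nr1d2 (541 against 407 to 421). Csnk1e was at 1018 in control replicate 2 and at 1156 to 1183 in the other control libraries.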

How the results depend on the processing

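The count of 4 genes besides Hlf past the threshold stayed at 4 under the other normalizations, filters, limma-voom and the block, and was 5 with DESeq2. With 1 library left out in turn it was 2 to 6, lowest without control replicate 2 and highest without MitolΔ/Δ replicate 4. Over all genes, 1386 were called, 2317 of 15802 with DESeq2, and 359 (without control replicate 2) to 2501 (without MitolΔ/Δ replicate 4) with 1 library left out, and the count also moved by over 1.5 times without MitolΔ/Δ replicate 1, 2 or 3 or control replicate 3 or 4. Of the other clock genes 3 were called, 2 with DESeq2 size factors, 2 with no filter, 5 with DESeq2, and 0 to 5 with 1 library left out (lower by over 1.5 times without MitolΔ/Δ replicate 1, 2 or 3 or control replicate 2 or 4, higher without MitolΔ/Δ replicate 4). The log2 fold change of Hlf ran from -0.85 to -0.69 over these settings. Leaving out both MitolΔ/Δ replicate 3 and control replicate 4, chosen after seeing the data, gave 62 genes, 1 gene of the 8 and 0 other clock genes. The edgeR adjusted p-values were 0.0984 for Nr1d2, 0.103 for Per3 and 0.123 for Tef. For Nr1d2, Per3 and Clock, as for Hlf, these were the lowest MitolΔ/Δ and the highest control library, so the difference had to narrow. For Per2 the difference had to widen, and for Bhlhe40 to narrow. With libraries left out, singly or both, log2 fold changes that turned sign ran from -0.14 to 0.051 for Clock (0.051 with both out), from -0.13 to 0.51 for Npas2 (-0.13 without MitolΔ/Δ replicate 3 and with both out), from -0.52 to 0.038 for Per1 (0.038 without control replicate 3) and from -1.35 to 0.16 for Rorb (0.16 and 0.14 without MitolΔ/Δ replicates 1 and 2). The cause was not tested. Of 300 settings of single genes, 235 kept direction and side of the threshold, 56 lost the call, 3 gained it and 6 turned sign. The 300 include settings of genes not called in the main fit, which had no call to lose. The share of calls lost is therefore higher than 56 of 300. Same-numbered libraries had weak correlations of deviations (0.08, -0.0695, 0.0529 and 0.0669), and 2 of 4 MitolΔ/Δ libraries correlated best with their own number. These values cannot exclude pairing, and the numbers were not taken as pairs in the main fit. The fit with the replicate number as a block called 1652 genes, 4 of the 8 and 4 other clock genes.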
